A study of Homo sapiens with 12 samples.

Results

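The genes described here are 31 genes of cholesterol synthesis, uptake, transport and efflux, named by symbol on a list and matched to 31 of the 63925 gene IDs in each count file. They are 17 enzymes of sterol synthesis and 5 genes for the SREBP transcription factors and the proteins that control them. The others are 4 proteins that move or store sterol inside the cell, and 5 genes of sterol efflux and its nuclear receptors. The list does not hold every gene of the pathway, and no receptor for uptake of lipoprotein is among the members. Messenger RNA was counted in 12 neural cultures grown from H9 or H1, which are established human embryonic stem cell lines. The cultures were differentiated for 10 weeks by dual SMAD inhibition, a way of turning stem cells into neural cells, and then kept for 6 h with 1 µM dexamethasone, a synthetic glucocorticoid, or with its solvent DMSO (vehicle). Both lines were thus kept with and without dexamethasone, which gives 4 groups of 3 sister cultures. H9 and H1 are 1 line each, and a difference between them cannot be told apart from a difference between their differentiation runs. Nothing in the labels says that sister cultures came from separate differentiations, so the p-values cover only how far such cultures vary.

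Cells make cholesterol from acetyl-CoA through mevalonate, farnesyl diphosphate, squalene and lanosterol. When sterol in the endoplasmic reticulum is low, SCAP escorts the SREBP proteins, the products of SREBF1 and SREBF2, to the Golgi, where they are cut and released to switch on the genes of synthesis. INSIG1 and INSIG2 hold SCAP back when sterol is plentiful, and the liver X receptors, NR1H3 and NR1H2, respond to oxysterols by switching on exporters such as ABCA1 and ABCG1. The brain makes its own cholesterol, and astrocytes pass part of theirs to neurons on particles that carry APOE.

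Promoter sequences from RefSeq (build GRCh38.p14), from 250 bases before to 50 bases after each annotated start, were found for 27 of the 31 genes. Their letters were searched on both strands for a CCAAT box (CCAAT), which NF-Y binds, a sterol regulatory element (TCACNCCAC), which SREBP binds, and a GC box (GGGCGG), which SP1 binds. Matches of different motifs shared no base in these promoters. A CCAAT box was present for 13 of the 14 enzymes with a promoter sequence, or 92.86% of them, against 39.72% of the 27305 genes in the table and 34.61% of its 35116 promoters. The enzyme promoters held 35 such boxes at distinct positions, 34 of them before the start, and 10 enzymes had at least 2 in 1 promoter. PMVK was the enzyme without one. Outside the enzymes, ABCA1, NR1H2, SREBF1, SCAP, INSIG2 and NPC1 had none. Among the 27 genes this form of the sterol regulatory element was found only for SREBF2. It was found for 1.39% of all genes and in 1.13% of all promoters. A GC box was found for 26 of the 27 genes, all but NSDHL, against 48.3% of all genes. By promoter the shares were 84.62% for these genes and 44.95% for all promoters. A match is a run of letters and not a shown binding site, and a missing match says nothing about other forms of a motif.

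The 200 bases before the start are printed for genes whose levels the results below turn on, 5′ to 3′ on the strand of the gene, with each CCAAT box (ATTGG on the other strand) and the sterol regulatory element of SREBF2 in capitals. HMGCS1 (chr5:43313413-43313612, minus strand), MVK (chr12:109573594-109573793, plus), MSMO1 (chr4:165327469-165327668, plus) and STARD4 (chr5:111512536-111512735, minus) show promoters with several boxes. SREBF2 (chr22:41832905-41833104, plus) shows both motifs, and PMVK (chr1:154936720-154936919, minus) and ABCA1 (chr9:104928156-104928355, minus) show promoters with neither.
HMGCS1: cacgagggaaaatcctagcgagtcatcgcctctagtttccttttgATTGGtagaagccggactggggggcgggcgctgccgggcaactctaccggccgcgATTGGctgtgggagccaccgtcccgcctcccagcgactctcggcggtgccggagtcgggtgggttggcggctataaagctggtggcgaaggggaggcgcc
MVK: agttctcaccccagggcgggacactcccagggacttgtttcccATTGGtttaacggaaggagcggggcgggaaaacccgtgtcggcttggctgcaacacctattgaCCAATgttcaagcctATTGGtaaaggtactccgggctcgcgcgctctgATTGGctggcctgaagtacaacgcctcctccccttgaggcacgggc
MSMO1: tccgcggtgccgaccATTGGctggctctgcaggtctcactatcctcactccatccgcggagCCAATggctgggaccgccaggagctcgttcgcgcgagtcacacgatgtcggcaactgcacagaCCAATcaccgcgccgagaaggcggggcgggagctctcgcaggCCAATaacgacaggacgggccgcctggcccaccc
STARD4: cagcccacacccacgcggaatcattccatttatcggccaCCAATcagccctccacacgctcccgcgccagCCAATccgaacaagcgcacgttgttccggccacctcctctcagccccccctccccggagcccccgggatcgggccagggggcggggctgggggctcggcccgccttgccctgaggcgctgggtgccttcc
SREBF2: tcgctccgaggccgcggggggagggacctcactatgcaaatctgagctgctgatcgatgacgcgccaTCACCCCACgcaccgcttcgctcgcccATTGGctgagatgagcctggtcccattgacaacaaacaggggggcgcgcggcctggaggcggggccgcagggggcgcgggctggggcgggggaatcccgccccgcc
PMVK: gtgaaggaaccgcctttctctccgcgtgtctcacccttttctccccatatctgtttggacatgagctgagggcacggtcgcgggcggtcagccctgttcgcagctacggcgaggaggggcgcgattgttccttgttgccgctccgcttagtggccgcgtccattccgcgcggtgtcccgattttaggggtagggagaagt
ABCA1: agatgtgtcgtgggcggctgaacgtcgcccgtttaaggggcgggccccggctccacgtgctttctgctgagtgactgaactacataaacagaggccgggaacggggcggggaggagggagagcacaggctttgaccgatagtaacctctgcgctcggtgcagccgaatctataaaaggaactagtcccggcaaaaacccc

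Total counts ran from 14751168 to 27505804 per library. H9 vehicle culture 3 stood apart. It had the lowest total, its mitochondrial share of counts was 0.607% where the remaining libraries had 2.91% to 5.64%, and the typical log2 distance (root mean square) from its sister cultures was 0.853 where all others had 0.268 to 0.511. The counts of called members, and the values of members whose call it changes, are therefore given with and without it. The treatment check followed the labels in all 12 libraries: FKBP5, a glucocorticoid target, stood at 3.76 to 5.98 CPM (counts scaled to library size with TMM factors) in the vehicle cultures and at 18.9 to 29.8 CPM with dexamethasone. Of the markers that should define such cultures, MAP2 and DCX of neurons, VIM, NES and PAX6 of progenitors and GFAP of astrocytes were present. SOX2, HES5 and ALDOC were listed at 0 in every library, and TUBB3 did not exceed 0.884 CPM.

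All 31 genes were expressed and passed the filter on low counts. Per kilobase of merged exon, HMGCS1, the synthase that makes HMG-CoA, had the highest level, 349.5 CPM per kb in the H1 vehicle cultures and 194.7 in the H9 vehicle cultures. MSMO1, which removes methyl groups from lanosterol products, followed in H1 at 116 CPM per kb. In the H9 vehicle cultures its mean of 71.2 CPM per kb lay under the 78.3 of SREBF2, but culture 3 lowered that mean. MSMO1 stood at 81.6 CPM in H9 vehicle culture 3 and at 276 and 261 CPM in its sister cultures. In the H9 dexamethasone cultures MSMO1, at 99.0 CPM per kb, lay above SREBF2, at 76.4. SREBF2, FDFT1 and SQLE came next in H1, at 87.8, 87.7 and 78.6 CPM per kb. The lowest levels per kb in H1 were those of ABCG1 (1.40) and NR1H3 (1.58), and the enzymes MVK, HSD17B7 and LSS also stayed under 10 CPM per kb there, at 9.47, 7.25 and 5.94. The plot of all members by library shows the order and the spread.

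**Figure D1:**
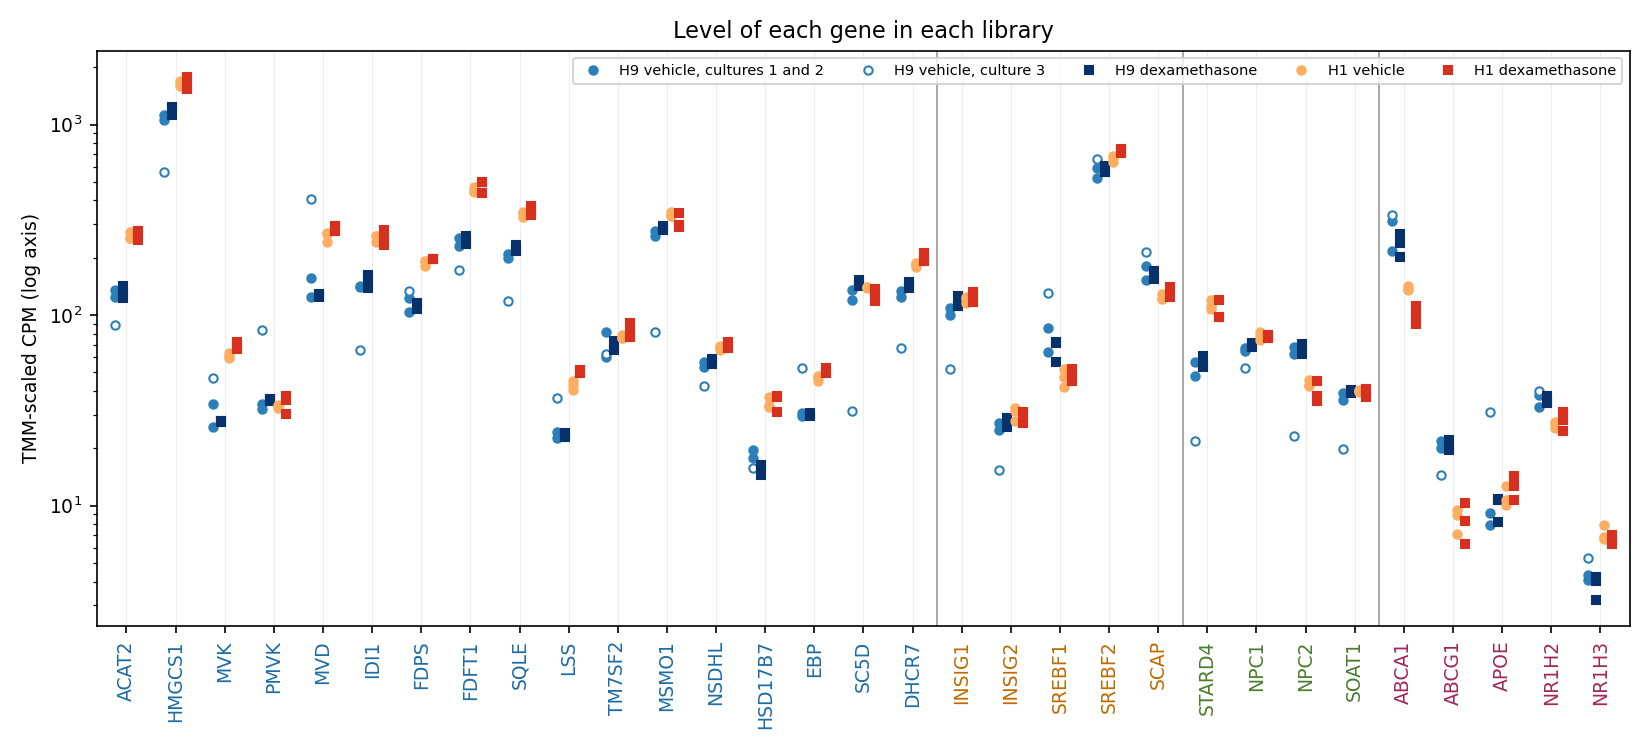
TMM-scaled CPM (log axis) of each of the 31 genes, with 1 point per library, ordered by role: enzymes (blue names), SREBP regulators (orange), sterol handling (green), efflux and liver X receptors (red). The H9 points (blue) lie under the H1 points (orange and red) for most enzymes and above them for ABCA1 and ABCG1, and the open circle, H9 vehicle culture 3, often lies away from its sister cultures.

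The called differences in this gene set lay between the lines. In vehicle and in dexamethasone cultures, 11 of the 17 enzymes of sterol synthesis were called lower in H9 than in H1, and the exporters ABCA1 and ABCG1 were called higher. Summed over the 17 enzymes, the level was 2067 to 3098 CPM in the 6 H9 libraries and 4258 to 4753 CPM in the 6 H1 libraries, with no overlap. The geometric mean over the enzymes, in which HMGCS1 weighs no more than the others, was 79.4 to 97.9 CPM in H9 and 142.9 to 154.1 CPM in H1.

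In the vehicle cultures, 5 of the 31 genes were higher and 14 lower in H9 at an adjusted p under 0.05 (edgeR's quasi-likelihood test with Benjamini-Hochberg adjustment over 17819 genes). The shares over all genes tested were 25.7% higher and 21.2% lower. Among the 17 enzymes none was higher and 11 were lower, with a median log2 difference (H9 minus H1) of -0.71 against 0.03 over all genes. Without H9 vehicle culture 3, 6 genes were higher and 21 lower, 14 of the enzymes among the lower ones, where all genes gave 30.1% and 28.6%. In the dexamethasone cultures, which are other libraries, 4 genes were higher and 14 lower, with 11 enzymes among the lower (all genes 22.5% and 21.2%), and the enzyme median was -0.76. Leaving H9 vehicle culture 3 out of that fit, where it only adds to the pooled spread, gave 7 higher and 19 lower (all genes 31.9% and 32.8%).

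The H9 and H1 libraries were free of overlap for 24 of the 31 genes in vehicle, against 54.7% of all genes, and for 25 in dexamethasone, against 68.2%. In both comparisons 11 genes were called lower, namely ACAT2, MVK, IDI1, FDPS, FDFT1, SQLE, LSS, NSDHL, HSD17B7, STARD4 and NR1H3. ABCA1, ABCG1 and NR1H2 were called higher in both, and no gene was called in opposite directions. The sign was the same in both for 28 of the 31 genes. Of all genes, 25.7% were called higher and 21.2% lower in vehicle, and 22.5% and 21.2% in dexamethasone. How many of all genes were called in both, or had the same sign in both, was not computed.

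**Figure D2:**
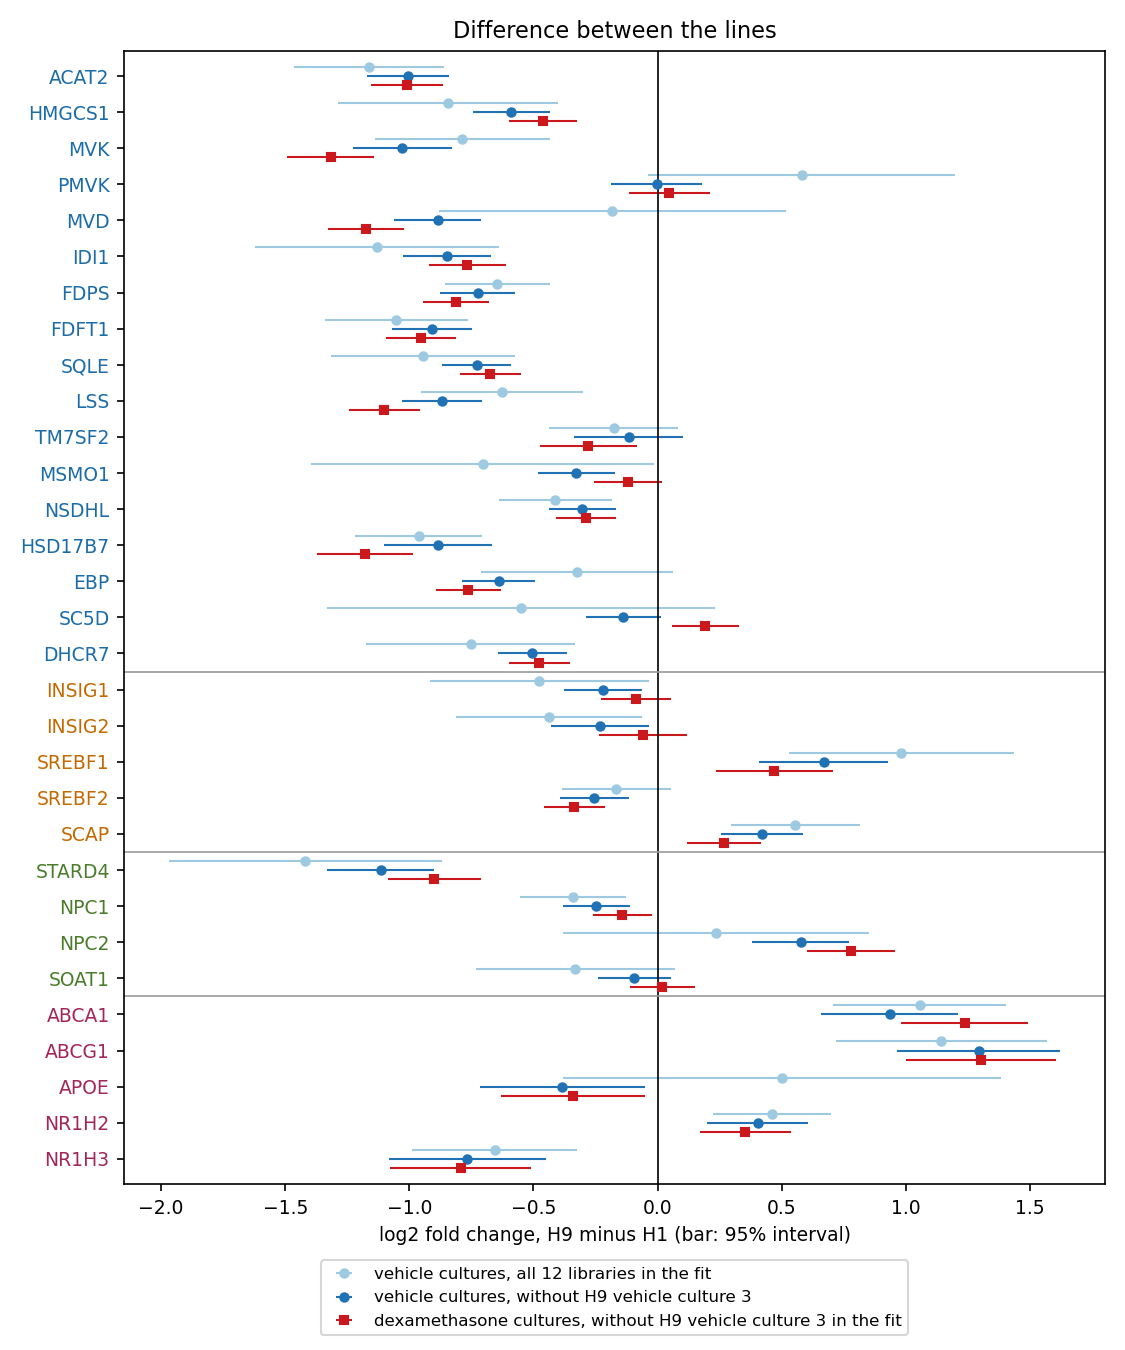
Log2 fold change between the lines (H9 minus H1) for each gene, with 95% intervals, in vehicle cultures with and without H9 vehicle culture 3 and in dexamethasone cultures. Most enzymes lie left of 0 in all 3 series, ABCA1 and ABCG1 lie near 1 or above, and the intervals with all 12 libraries (light blue) are the widest.

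Of the 7 enzymes listed that lead from acetyl-CoA to farnesyl diphosphate, ACAT2, MVK, IDI1 and FDPS were called lower in H9 in both comparisons, HMGCS1 in vehicle, MVD in dexamethasone, and PMVK in neither. ACAT2, the thiolase that joins acetyl-CoA units (ENSG00000120437.8, chr6:159760328-159779055, plus strand), stood at 125, 135 and 89.1 CPM in H9 vehicle cultures 1, 2 and 3 and at 253, 254 and 274 CPM in H1. With dexamethasone it stood at 130.5, 142 and 124 CPM in H9 and at 247, 278 and 274 CPM in H1. Every H9 library lay under every H1 library. The gene was 2.24-fold lower in vehicle (log2 -1.16 ± 0.14 SE, adjusted p = 3.97e-05 by edgeR) and 2.01-fold lower in dexamethasone (adjusted p = 0.000109). Exons of ACAT2 overlap genes on the opposite strand, TCP1 among them, and no source used here gives the strand setting of the counting.

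HMGCS1 (ENSG00000112972.14, chr5:43289395-43313512, minus strand) stood at 1125, 1060 and 562 CPM in the H9 vehicle cultures and at 1651, 1584 and 1696 CPM in the H1 vehicle cultures. With dexamethasone it stood at 1236, 1217 and 1119 CPM in H9 and at 1529, 1779 and 1617 CPM in H1. The lines did not overlap under either condition, and culture 3 was the lowest library of all. The vehicle difference was -0.84 ± 0.20 on the log2 scale (adjusted p = 0.00521) and -0.59 ± 0.07 without culture 3 (adjusted p = 4.64e-06). In dexamethasone it was -0.46 ± 0.20 and missed the threshold (adjusted p = 0.0839), but passed it when culture 3 was left out of the fit (-0.46 ± 0.07, adjusted p = 1.2e-05).

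MVK, which phosphorylates mevalonate, stood at 25.9, 34.3 and 46.9 CPM in H9 vehicle and at 59.6, 63.2 and 61.3 CPM in H1 vehicle. In dexamethasone the H9 cultures stood at 27.4, 27.9 and 27.9 CPM and the H1 cultures at 66.0, 71.9 and 69.5 CPM. It was lower in every H9 library, 1.73-fold in vehicle (adjusted p = 0.00195) and 2.49-fold in dexamethasone (adjusted p = 5.18e-05). MVD, the decarboxylase that ends the mevalonate steps, stood at 125, 156 and 406 CPM in H9 vehicle and at 267, 242 and 269 CPM in H1 vehicle, so that culture 3 lay above and its sister cultures below H1. Its vehicle difference was -0.18 ± 0.32 (adjusted p = 0.663) with culture 3 and -0.89 ± 0.08 without it (adjusted p = 1.85e-07). In dexamethasone MVD was 2.26-fold lower in H9 (adjusted p = 0.0117).

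PMVK, the kinase between MVK and MVD, did not pass the threshold in either comparison with all libraries. It stood at 32.0, 34.2 and 83.5 CPM in H9 vehicle, at 35.3 to 36.4 CPM in H9 dexamethasone and at 30.4 to 37.8 CPM in the 6 H1 libraries. Apart from culture 3 the lines overlapped. The 95% interval of its line difference without culture 3 was -0.19 to 0.18 in vehicle and -0.12 to 0.21 in dexamethasone. IDI1, the isomerase of the isoprene units, was 2.19-fold lower in vehicle (adjusted p = 0.0016) and 1.70-fold lower in dexamethasone (adjusted p = 0.0155). The dexamethasone call of IDI1 was lost without H9 dexamethasone culture 3 (adjusted p = 0.0635) or H1 dexamethasone culture 2 (adjusted p = 0.055). FDPS, which makes farnesyl diphosphate, stood at 104 to 133 CPM in H9 and at 181 to 197 CPM in H1, and was 1.56-fold and 1.76-fold lower in H9 (adjusted p = 0.000231 and 4e-05).

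The squalene and lanosterol steps were lower in H9 as well. FDFT1, squalene synthase, stood at 232, 255 and 173 CPM in H9 vehicle and at 441, 472 and 454 CPM in H1 vehicle, and was 2.07-fold lower (log2 -1.05 ± 0.13, adjusted p = 6.13e-05). In dexamethasone it was 1.94-fold lower (adjusted p = 0.000121). SQLE, squalene epoxidase, which limits the rate of the later pathway, stood at 200, 209 and 118 CPM in H9 vehicle and at 327, 342 and 347 CPM in H1 vehicle. It was 1.92-fold lower in vehicle (adjusted p = 0.000803) and 1.60-fold lower in dexamethasone (adjusted p = 0.00673). LSS, lanosterol synthase, stood at 22.7 to 36.7 CPM in H9 and at 40.6 to 51.5 CPM in H1. It was 1.55-fold lower in vehicle (adjusted p = 0.00486) and 2.15-fold lower in dexamethasone (adjusted p = 0.00011). None of these enzymes overlapped between the lines.

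The steps after lanosterol were more uneven. HSD17B7, a ketoreductase, had the largest differences of this group, 1.95-fold lower in vehicle (adjusted p = 4.81e-05) and 2.26-fold lower in dexamethasone (adjusted p = 9.32e-06), with 14.5 to 19.7 CPM in H9 and 30.98 to 37.5 CPM in H1. A transcribed copy, HSD17B7P2, held 1724 counts over all libraries against 7475 for the gene, so reads may be split between them. DHCR7, the reductase that makes cholesterol from its direct precursor, was 1.69-fold lower in vehicle (adjusted p = 0.00726). In dexamethasone it missed the threshold (log2 -0.48 ± 0.19, adjusted p = 0.0623), which it passed without H9 vehicle culture 3 (adjusted p = 2.67e-06). NSDHL, a dehydrogenase of the demethylation complex, was 1.33-fold lower in vehicle (adjusted p = 0.00675). Its dexamethasone call (log2 -0.29 ± 0.10, adjusted p = 0.0398) was lost, at -0.27 to -0.32, on leaving out any 1 library other than H9 vehicle cultures 2 and 3.

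EBP, a sterol isomerase, was 1.70-fold lower in H9 in dexamethasone (adjusted p = 0.00441). In vehicle it stood at 29.4, 30.8 and 52.6 CPM in H9 and at 47.6, 45.1 and 48.1 CPM in H1. By edgeR it was called lower there only without culture 3 (-0.64 ± 0.07, adjusted p = 1.18e-06, against -0.33 ± 0.18 and 0.15 with it). By limma-voom with sample quality weights it was called lower with culture 3 as well (-0.63, adjusted p = 5.6e-07). MSMO1 stood at 276, 261 and 81.6 CPM in H9 vehicle and at 330.4, 349 and 330.0 CPM in H1 vehicle. Its vehicle difference was -0.71 ± 0.32 (adjusted p = 0.0866) with culture 3 and -0.33 ± 0.07 (adjusted p = 0.00124) without it, and in dexamethasone the difference was -0.12 ± 0.32 (adjusted p = 0.792). With culture 3 the vehicle difference of MSMO1 passed by limma-voom without and with sample quality weights (adjusted p = 0.0496 and 0.00202). It also passed without a filter on low counts (adjusted p = 0.0357) and without H9 vehicle culture 1 (adjusted p = 0.037). TM7SF2, a sterol reductase, did not pass in either comparison with all libraries (log2 -0.18 and -0.28), and it passed in dexamethasone without culture 3 (adjusted p = 0.0142).

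SC5D, a sterol desaturase, was the only enzyme called higher in H9 in any of these 4 fits of the line difference. It stood at 135, 120 and 31.5 CPM in H9 vehicle and at 139, 141 and 141 CPM in H1 vehicle, with all H9 cultures below. In dexamethasone the H9 cultures, at 145, 152 and 143 CPM, lay above the H1 cultures, at 118, 137 and 130 CPM. The dexamethasone difference of 0.19 was not called with all libraries (SE 0.36, adjusted p = 0.697) and was called without H9 vehicle culture 3 (SE 0.06, adjusted p = 0.0147). In vehicle SC5D was not called with culture 3 (adjusted p = 0.225) or without it (adjusted p = 0.11).

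Among the regulators, SREBF1 and SCAP were higher in H9 vehicle cultures. In the main edgeR fit of all libraries SREBF2 and the INSIG genes were not called there. SREBF1, whose products also drive fatty acid synthesis, stood at 85.6, 64.3 and 130 CPM in H9 vehicle and at 52.0, 42.1 and 47.5 CPM in H1 vehicle. In dexamethasone it stood at 72.0, 56.9 and 71.3 CPM in H9 and at 47.3, 45.0 and 52.1 CPM in H1. The lines did not overlap in either condition. The difference was 0.98 ± 0.21 in vehicle (adjusted p = 0.00236), 0.67 ± 0.12 without culture 3 (adjusted p = 0.000225), and 0.47 ± 0.21 in dexamethasone, which missed the threshold (adjusted p = 0.0849). The dexamethasone difference of SREBF1 passed without H9 vehicle culture 3 (0.47 ± 0.11, adjusted p = 0.00161) or 2 (adjusted p = 0.031), with the culture number as a replicate block (adjusted p = 0.0386), without a filter on low counts (adjusted p = 0.0398) and by limma-voom with sample quality weights (adjusted p = 0.000967). Exons of SREBF1 share 556 bases with RAI1 on the opposite strand.

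SCAP stood at 152 to 215 CPM in the H9 libraries and at 121 to 140.1 CPM in the H1 libraries. It was 1.47-fold higher in H9 vehicle (adjusted p = 0.00256) and did not pass in dexamethasone (log2 0.27 ± 0.12, adjusted p = 0.0885), where it passed without H9 vehicle culture 3 (0.27 ± 0.07, adjusted p = 0.00342) or 1 (adjusted p = 0.0316). SREBF2, the main activator of the sterol genes, stood at 524 to 662 CPM in H9 and at 637 to 746 CPM in H1. It was 1.26-fold lower in H9 dexamethasone cultures (adjusted p = 0.0176), a call lost without H9 dexamethasone culture 1 or 2 or H1 dexamethasone culture 1 (adjusted p = 0.0625, 0.06 and 0.0568). In vehicle the SREBF2 difference was -0.17 ± 0.10 (adjusted p = 0.194), and without H9 vehicle culture 3 it was called lower (-0.26 ± 0.07, adjusted p = 0.0035). INSIG1 and INSIG2 did not pass in vehicle (log2 -0.48 and -0.44, adjusted p = 0.0719 and 0.0537) or in dexamethasone (log2 -0.09 and -0.06), and passed in vehicle without H9 vehicle culture 3 (log2 -0.22 and -0.23, adjusted p = 0.0191 and 0.0428). Both also passed there with the replicate block and by limma-voom with sample quality weights (adjusted p = 0.0262 and 0.0371). INSIG1 passed without H9 vehicle culture 2 (adjusted p = 0.0229). INSIG2 passed without H9 vehicle culture 1 (adjusted p = 0.0167), by DESeq2 (adjusted p = 0.0386) and by limma-voom (adjusted p = 0.0465).

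STARD4, which carries cholesterol through the cytosol, had the lowest log2 value of the 31 genes in the vehicle comparison. The gene (ENSG00000164211.12, chr5:111496033-111512590, minus strand) stood at 56.7, 47.7 and 22.0 CPM in H9 vehicle and at 112, 119 and 108 CPM in H1 vehicle. In dexamethasone it stood at 54.9, 61.1 and 53.4 CPM in H9 and at 97.6, 120.2 and 98.3 CPM in H1. All H9 libraries lay below all H1 libraries. The difference was -1.42 ± 0.25 in vehicle (2.67-fold lower, adjusted p = 0.000743), -1.12 ± 0.10 without culture 3 and -0.90 ± 0.25 in dexamethasone (1.86-fold lower, adjusted p = 0.0116).

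The lysosomal sterol carriers NPC1 and NPC2 went different ways. NPC1, the membrane protein that exports cholesterol from lysosomes, was 1.27-fold lower in H9 vehicle (adjusted p = 0.013), a call lost without H1 vehicle culture 1 (adjusted p = 0.0543). In dexamethasone NPC1 did not pass (-0.14 ± 0.10, adjusted p = 0.263), except without H9 vehicle culture 3 (-0.14 ± 0.06, adjusted p = 0.0362). NPC2, its soluble partner, stood at 62.7, 70.4 and 69.2 CPM in H9 dexamethasone and at 35.4, 37.4 and 45.0 CPM in H1 dexamethasone, with no overlap. That difference of 0.78 ± 0.28 was called (adjusted p = 0.0427), but leaving out any single library other than the 3 of H9 vehicle ended the call (adjusted p = 0.0589 to 0.127). In vehicle NPC2 stood at 62.2, 68.3 and 23.3 CPM in H9 and at 42.3 to 45.8 CPM in H1. By edgeR it was called higher there only without culture 3 (0.58 ± 0.09, adjusted p = 6.05e-05). By limma-voom with sample quality weights it was called higher with culture 3 as well (0.60, adjusted p = 4.49e-05). SOAT1, which esterifies cholesterol for storage, stood at 36.1 to 40.3 CPM in H9 apart from culture 3 (19.9 CPM) and at 37.2 to 40.8 CPM in H1. It did not pass in either comparison, with all libraries or without H9 vehicle culture 3.

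The exporters were the highest calls in H9. ABCA1, which loads cholesterol onto apolipoproteins (ENSG00000165029.15, chr9:104781002-104928237, minus strand), stood at 313, 217 and 334 CPM in H9 vehicle and at 136, 137 and 143 CPM in H1 vehicle. In dexamethasone it stood at 238, 202 and 267 CPM in H9 and at 89.7, 99.1 and 111 CPM in H1. The lines did not overlap. ABCA1 was 2.08-fold higher in vehicle (log2 1.06 ± 0.16, adjusted p = 0.000236) and 2.36-fold higher in dexamethasone (log2 1.24 ± 0.16, adjusted p = 7.41e-05). ABCG1, which exports sterol to mature lipoprotein particles (ENSG00000160179.18, chr21:42199689-42297244, plus strand), stood at 21.8, 20.1 and 14.5 CPM in H9 vehicle and at 8.95, 7.15 and 9.53 CPM in H1 vehicle. In dexamethasone it stood at 19.6, 19.8 and 22.1 CPM in H9 and at 8.34, 6.31 and 10.3 CPM in H1. It was 2.21-fold and 2.47-fold higher in H9 (adjusted p = 0.000566 and 0.000216). Both genes kept these calls when any single library was left out, with log2 differences of 0.94 to 1.34 for ABCA1 and 1.00 to 1.48 for ABCG1.

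The liver X receptors differed in opposite directions. NR1H2, the widely expressed form, stood at 32.8 to 39.8 CPM in H9 and at 24.7 to 31.1 CPM in H1. It was 1.38-fold higher in vehicle (adjusted p = 0.00471) and 1.28-fold higher in dexamethasone (adjusted p = 0.0205). The second call was lost without H9 dexamethasone culture 3 or H1 dexamethasone culture 1 or 2 (adjusted p = 0.0757, 0.0551 and 0.0908). NR1H3, the other form, was scarce, at 3.22 to 5.31 CPM in H9 and 6.31 to 7.91 CPM in H1. It was 1.57-fold and 1.73-fold lower in H9 (adjusted p = 0.00422 and 0.00132), and shares 189 exon bases with ACP2 on the opposite strand. APOE stood at 7.95, 9.19 and 31.2 CPM in H9 vehicle and at 10.1 to 12.7 CPM in H1 vehicle. Its difference was 0.50 ± 0.41 (adjusted p = 0.327) with culture 3 and -0.38 ± 0.16 (adjusted p = 0.0456) without it, so 1 library set the direction. In dexamethasone it was -0.34 ± 0.41 (adjusted p = 0.532), and it was called lower when culture 3 was left out of the fit (-0.34 ± 0.14, adjusted p = 0.0394).

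Markers of several cell types differed between the lines too. Over all genes, 25.7% were higher and 21.2% lower in H9 vehicle cultures, and 22.5% and 21.2% in H9 dexamethasone cultures. All 14 markers of proliferating cells were lower in H9 in both comparisons, and their summed level was 94.7 to 146 CPM in H9 and 597 to 694 CPM in H1. MKI67 alone stood at 12.9 to 34.3 CPM in H9 and at 118 to 154 CPM in H1. Of 12 markers of mesenchymal cells and fibroblasts, 8 were lower in H9 vehicle and 7 in H9 dexamethasone, while TWIST1 was higher in both, with sums of 872 to 1021 CPM in H9 and 3160 to 6168 CPM in H1. Of 11 neuronal markers 7 were higher in H9 in each comparison (sums of 5916 to 7113 CPM against 4009 to 4583 CPM). Of 11 tested astrocyte markers 5 were higher in vehicle and 6 in dexamethasone, and 1 was lower in each (sums of 1813 to 2776 CPM against 1177 to 1350 CPM). Of 7 tested markers of radial glia and progenitors, 1 was higher in vehicle and 2 in dexamethasone (HOPX and PTPRZ1), and 0 were lower in either. The vehicle call was NES, at 5545 CPM in H9 culture 3, 1057 and 1094 CPM in its sister cultures and 935 to 1028 CPM in H1. Of the oligodendrocyte lineage, SOX10, MOG and MAG were at 0 or under 0.1 CPM in every library, and MBP and OLIG2 were higher in H9 in both comparisons. Of the 5 pluripotency markers 2 were tested, of which DPPA4 was called higher in H9 (1.92 to 4.80 CPM against 0.042 to 0.811 CPM) and LIN28A lower (0.042 to 0.585 CPM against 0.695 to 1.45 CPM). POU5F1 was listed at 0 throughout, as some markers of the studied cells were. Without H9 vehicle culture 3 the proliferation and mesenchymal counts for vehicle were the same, at 14 and 8 lower. In that fit 9 neuronal and 6 astrocyte markers were higher, where all genes gave 30.1% higher and 28.6% lower. The part of these markers in the lower enzyme levels of H9 was not tested, and in bulk samples fewer cells of a type and less RNA per cell cannot be told apart.

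No change with dexamethasone passed the threshold for any of the 31 genes in the fit of all libraries. With all 12 libraries, 0 genes were called in H9, in H1, over both lines together or for the difference between the lines. The shares of all genes called were 0.0673%, 0.0505%, 0.101% and 0%, so few genes of any kind passed. At an unadjusted p under 0.05 there were 3, 1, 1 and 3 of the 31 genes, where 16.3%, 2.95%, 7.49% and 7.46% of all genes had such a p, and DESeq2 and limma-voom also called 0 in each. Without H9 vehicle culture 3 edgeR again called 0 in H9, in H1 and over both, where the shares of all genes called were 0.293%, 0.326% and 0.774%. There 4, 4 and 5 of the 31 had an unadjusted p under 0.05, as had 11.1%, 10% and 10.8% of all genes. By limma-voom with sample quality weights 1 gene, ABCA1, was called in H1, where 110 of 17819 genes were called.

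With the H1 libraries fitted alone, the 95% intervals of the 31 log2 changes (dexamethasone minus vehicle) lay between -0.63, for ABCA1, and 0.45, for APOE. In H9 without vehicle culture 3 they lay between -0.49, for HSD17B7, and 0.55, for APOE. With culture 3 the H9 intervals reached from -1.56 to 1.40. The median change of the 17 enzymes was 0.07 in H1 and, without culture 3, 0.03 in H9. The summed enzyme level in H1 was 4363 to 4508 CPM with vehicle and 4258 to 4753 CPM with dexamethasone, and the ranges overlapped.

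**Figure D3:**
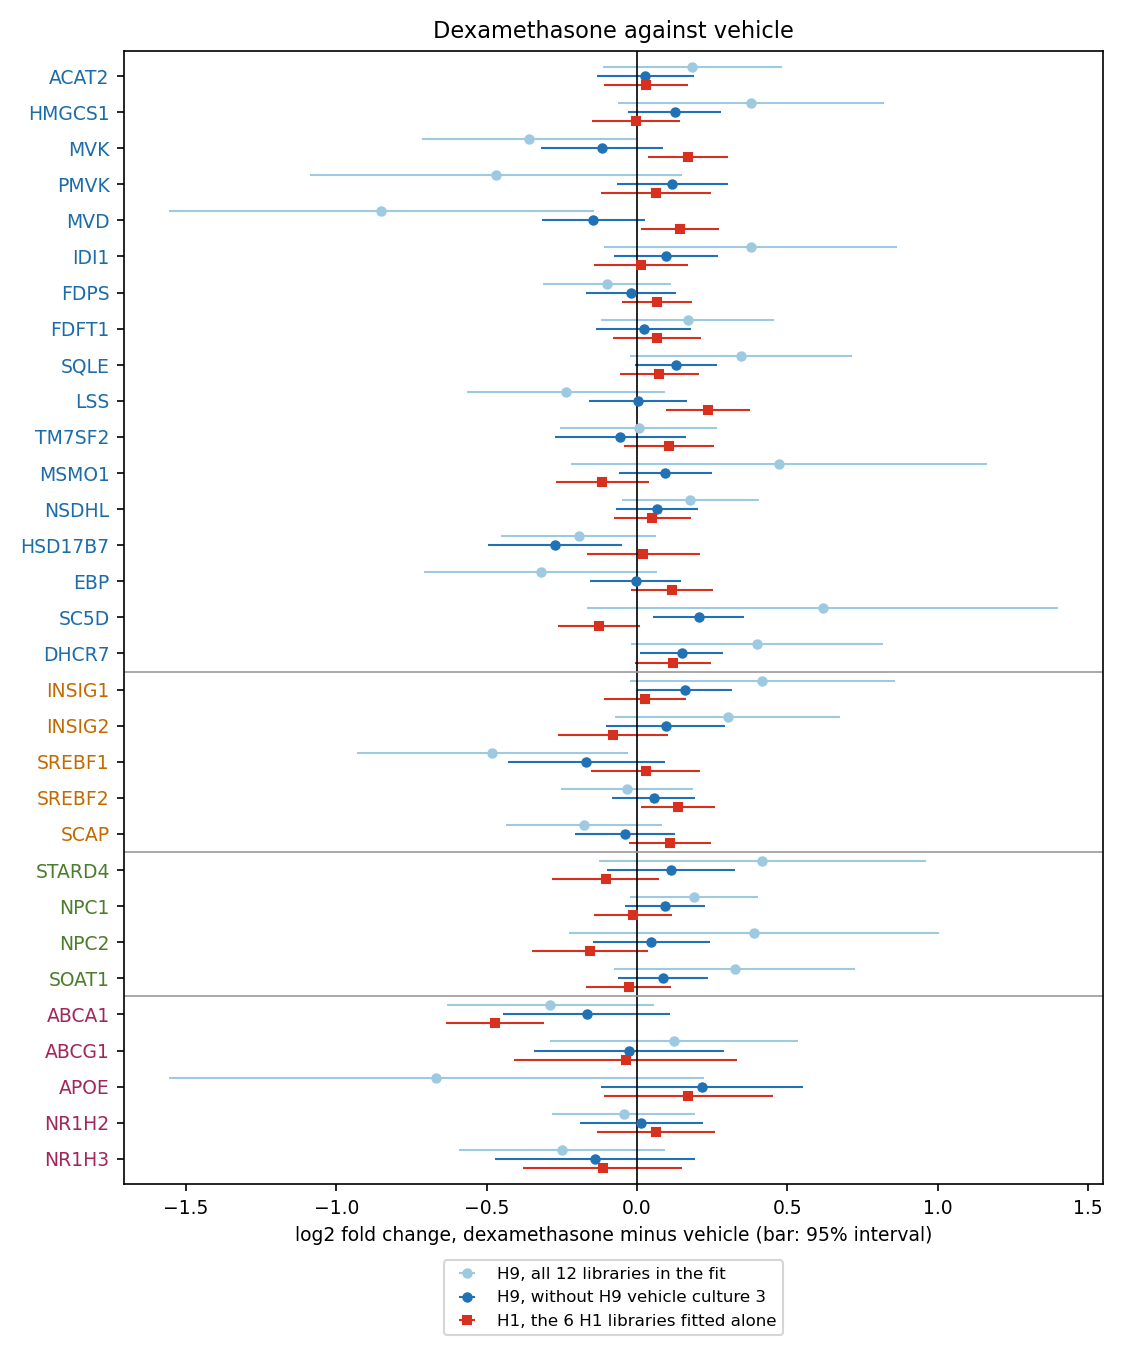
Log2 fold change with dexamethasone against vehicle for each gene, with 95% intervals, in H9 with all 12 libraries in the fit, in H9 without vehicle culture 3, and in H1 fitted alone. In the last 2 series the point farthest from 0 is ABCA1 in H1, at -0.47, and the intervals of H9 with all 12 libraries are the widest.

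ABCA1 came closest to a dexamethasone effect. In H1 it stood at 136, 137 and 143 CPM with vehicle and at 89.7, 99.1 and 111 CPM with dexamethasone, and the groups did not overlap. The change was -0.47 ± 0.16 with all 12 libraries (adjusted p = 1), -0.47 ± 0.12 without H9 vehicle culture 3 (adjusted p = 0.126) and -0.47 ± 0.08 with the H1 libraries alone (adjusted p = 0.0235 by edgeR, where 0.296% of genes were called). The direction was the same in all 21 alternatives, at -0.55 to -0.40 when single libraries were left out. In H9 the groups overlapped, at 217 to 334 CPM with vehicle and 202 to 267 CPM with dexamethasone, and the change was -0.29 ± 0.16 (adjusted p = 0.332). That H9 change ran from -0.45 to -0.17 when single libraries were left out, and its weakest value over all alternatives was -0.04. The difference between the lines' effects did not pass the interaction test (0.18 ± 0.22, adjusted p = 0.695), nor did it without culture 3 (0.30 ± 0.18, adjusted p = 0.562).

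For some genes the vehicle and dexamethasone groups were free of overlap. In H1 there were 9 of 31 such genes, a larger share than the 14.1% of all genes, and this was not tested. MVK, MVD, FDPS, LSS, EBP, DHCR7 and SREBF2 lay higher and SC5D and ABCA1 lower with dexamethasone. The largest of the former was LSS, at 45.3, 40.6 and 43.0 CPM with vehicle and 51.5, 50.6 and 49.8 CPM with dexamethasone. It had a change of 0.24 ± 0.15 (adjusted p = 1 by edgeR) and of 0.24 ± 0.06 in H1 alone (adjusted p = 0.195). In H9 there were 7 of 31, near the 21.4% of all genes. All 7 lay higher with dexamethasone, namely SQLE, MSMO1, SC5D, DHCR7, INSIG1, NPC1 and SOAT1. SC5D was free of overlap in both lines but in opposite directions. Its change without H9 vehicle culture 3 was 0.21 ± 0.07 in H9 (adjusted p = 0.281) and -0.12 ± 0.06 in H1 (adjusted p = 0.543), and the difference of 0.33 ± 0.10 did not pass (adjusted p = 0.379).

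In H9 the 3 genes at an unadjusted p under 0.05 were MVD (-0.85 ± 0.32), MVK (-0.36 ± 0.16) and SREBF1 (-0.48 ± 0.21). These values rested on vehicle culture 3, since they came to -0.15 ± 0.08, -0.12 ± 0.10 and -0.17 ± 0.12 without it.

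The deviation of H9 vehicle culture 3 differed from gene to gene and tended to rise with GC content, with exceptions. Relative to the mean of its sister cultures on the scale of log2(CPM + 0.5), SC5D stood at -2.00, MSMO1 at -1.71, NPC2 at -1.47 and STARD4 at -1.22. At the other end APOE stood at 1.81, MVD at 1.54, PMVK at 1.32 and SREBF1 at 0.80. The GC content of the longest annotated transcript was 38.6% for SC5D, 38.1% for MSMO1 and 34.2% for STARD4, and 68.5% for APOE and 63.7% for MVD. Against this trend went TM7SF2 (64.2% GC, deviation -0.18), DHCR7 (58.3%, -0.94) and ABCA1 (45.5%, 0.36), among others. Across the 31 genes the deviation and GC content had a Pearson correlation of 0.797 and a Spearman correlation of 0.784, as a description of 1 library, since genes are not independent replicates. Over 17579 genes the same correlations were 0.484 and 0.496. For the H9 minus H1 values with dexamethasone the correlations with GC content were -0.04 and -0.03 across the 31 genes. The cause of the deviation of culture 3 was not tested.

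**Figure D4:**
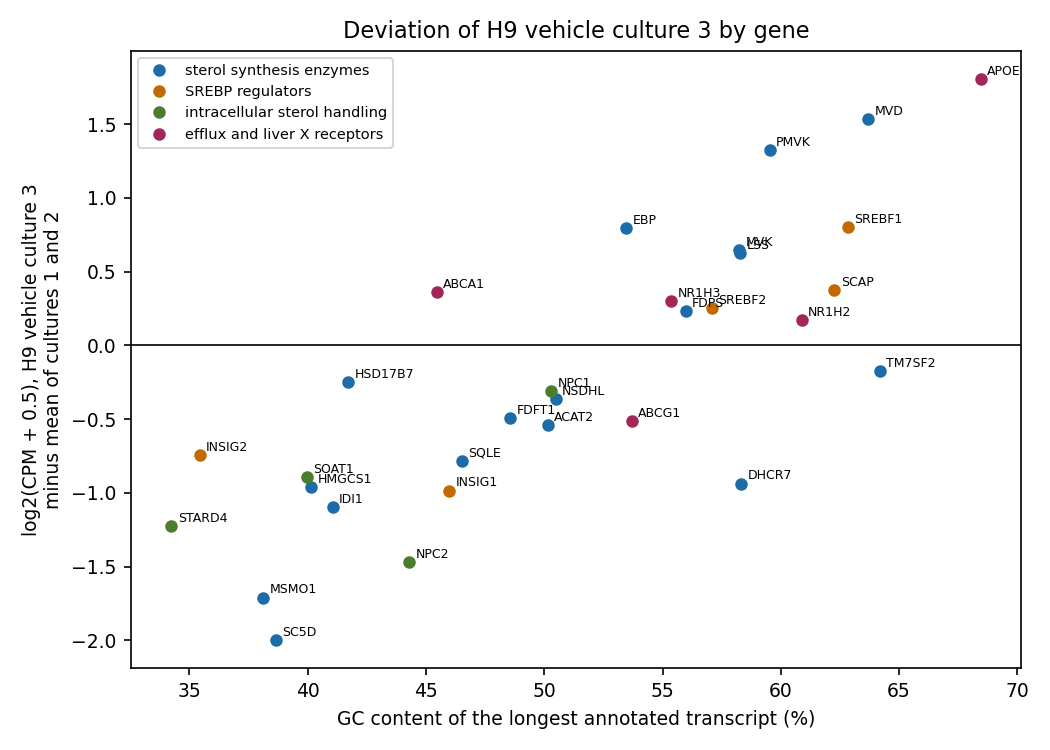
Deviation of H9 vehicle culture 3 from the mean of cultures 1 and 2 (log2(CPM + 0.5)) against the GC content of each gene's longest annotated transcript (%), with 1 point per gene coloured by role. SC5D and MSMO1 lie at the lower left (-2.00 and -1.71) and APOE and MVD at the upper right (1.81 and 1.54), and the 31 points have a Spearman correlation of 0.784.

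Genes of neighbouring pathways, from lists that hold none of the 31 genes, are given beside the shares over all genes, which were 25.7% higher and 21.2% lower in vehicle and 22.5% and 21.2% in dexamethasone. Of 15 genes of the isoprenoid branches, which use the same mevalonate products for prenyl groups and ubiquinone, 7 were lower and 0 higher in H9 vehicle cultures, among them FNTB (log2 -0.90 ± 0.21) and PGGT1B (-0.85 ± 0.18), and in dexamethasone 6 were lower and 1 higher. Of 17 genes of fatty acid synthesis, which SREBF1 products also regulate, 5 were higher and 6 lower in each comparison, near the shares over all genes for the higher calls. FADS2, a desaturase, was lower (-1.04 ± 0.09 in vehicle, adjusted p = 4.95e-06) and ME1, which supplies NADPH, was higher (2.37 ± 0.38, adjusted p = 0.000339). Without H9 vehicle culture 3 the isoprenoid list gave 8 lower and 1 higher in vehicle, and the fatty acid list 7 lower and 5 higher. In that fit 28.6% of all genes were lower and 30.1% higher.

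Of 16 genes of SREBP cleavage, sterol-regulated degradation and cofactors, 1 was higher and 5 lower in vehicle, and 2 and 3 in dexamethasone. SP1, which binds GC boxes, was lower (-1.14 ± 0.10 in vehicle, adjusted p = 2.69e-06). Of 13 genes of sterol transfer between membranes, 4 were higher and 3 lower in vehicle, and 3 and 1 in dexamethasone. TMEM97, a binding partner of NPC1, was the lowest at -1.79 ± 0.27 in vehicle and -1.22 ± 0.26 in dexamethasone (adjusted p = 0.00023 and 0.00274). It stood at 11.7 to 40.7 CPM in H9 and at 83.3 to 91.5 CPM in H1.

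Of 8 lipoprotein receptors and partners, 4 were higher and 3 lower in vehicle, with LRP1, a receptor that takes up APOE particles, at 1.01 ± 0.15 (adjusted p = 0.000246) and SORT1 at -0.55 ± 0.09. Of 7 tested genes among other transporters, apolipoproteins and targets of the liver X receptors, 6 were higher and 0 lower in vehicle, and 5 and 0 in dexamethasone. ABCG4, a relative of ABCG1, stood at 1.46 ± 0.22 in vehicle and 1.64 ± 0.22 in dexamethasone, and CLU, an apolipoprotein, at 1.39 ± 0.15 in dexamethasone (adjusted p = 1.83e-05). Of 5 tested oxysterol enzymes 2 were higher in vehicle, and 3 were higher and 1 lower in dexamethasone. CYP46A1, the neuronal enzyme that turns cholesterol into an oxysterol for export from the brain, stood at 1.20 ± 0.11 in vehicle and 1.14 ± 0.11 in dexamethasone (adjusted p = 5.86e-06 and 7.78e-06), from 42.1 to 55.0 CPM in H9 and 17.6 to 22.7 CPM in H1. With dexamethasone, 0 genes of these lists were called in either line by edgeR with all 12 libraries, and without H9 vehicle culture 3 ACSL3, a fatty acid ligase named after its values were seen, was called higher in H9 (adjusted p = 0.0214) and over both lines (adjusted p = 0.0319).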

How the data were processed

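The authors deposited raw read counts per gene for each of the 12 libraries of polyadenylated RNA. Per the submitters' processing notes STAR 2.5.3a and HTSeq (no version named) were used, and hg38 and GRCh38.p10 are the builds listed there. Which annotation release, strand setting and rule for multi-mapped reads were used is not given in the sources used here, so counts of MVK, SREBF1, NPC1, NPC2, NR1H3 and ACAT2, which overlap genes on the opposite strand, are less certain.

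Gene positions and exon lengths came from GENCODE 29 on GRCh38. Counts were tested with the quasi-likelihood F-test of edgeR 4.0.16 with 1 coefficient for each group (12 libraries, 8 residual degrees of freedom), after filterByExpr, which kept 17819 genes, and TMM scaling. Benjamini-Hochberg adjustment ran over all genes kept, with a threshold of 0.05. A standard error is the size of the log2 fold change over the root of its F statistic. CPM values use the effective (TMM) library sizes, and levels between genes are per kilobase of merged exon. The procedure was tested on simulated data. Alternatives were RLE factors, DESeq2 1.42.0, limma-voom (limma 3.58.1) with and without sample quality weights, other filters on low counts (none, or CPM of at least 1 in 3 libraries), library sizes without mitochondrial and the 20 most abundant genes, culture number as a term, fits of 1 line, and each library left out in turn. Whether culture numbers pair the libraries was checked by the correlations of their deviations from the group means, and sister cultures were compared in pairs, none of which agreed within sampling noise.

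The 31 genes, the other lists and the marker lists were chosen with earlier results of these data known. The text names all 31, at most 2 higher and 2 lower genes of each other list (adjusted p under 0.05 and mean CPM of at least 1), 1 check of the treatment and single markers. Some genes of the pathway are not analysed here. R 4.3.3 and Python 3.11.15 were used.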

Additional observations from a re-analysis of the deposited data

How the results depend on the processing

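Of the 19 calls between lines in vehicle cultures, 18 were kept under every alternative run, NPC1 being the exception, and of the 18 calls in dexamethasone cultures 13 were kept, the exceptions being IDI1, NSDHL, NPC2, NR1H2 and SREBF2. The number of members higher in H9 dexamethasone cultures was 4, was 7 by limma-voom with sample quality weights, and ranged from 2 (without H9 dexamethasone culture 3 or H1 dexamethasone culture 1 or 2) to 7 (without H9 vehicle culture 3). The number lower in H9 was 14 in each condition, and ranged from 13 to 21 in vehicle and from 12 to 19 in dexamethasone. Of all genes, 21.2% were lower in each condition with all libraries. Without H9 vehicle culture 3 the share was 28.6% in vehicle and 32.8% in dexamethasone. The share of all genes higher in dexamethasone was 22.5%, and 31.9% without that culture. Calls were also gained in vehicle, where PMVK passed as higher without H9 vehicle culture 1 or 2 (adjusted p = 0.0257 and 0.0391 by edgeR). SOAT1 passed as lower without H9 vehicle culture 1 (adjusted p = 0.0439) and TM7SF2 without H9 vehicle culture 2 (adjusted p = 0.0232). By limma-voom with sample quality weights, MVD (adjusted p = 4.7e-07), EBP and SREBF2 (adjusted p = 0.00302) passed as lower in vehicle, and NPC2 passed as higher. The number of members lower with dexamethasone in H1 was 0, and was 1 by limma-voom with sample quality weights and with the H1 libraries alone. Leaving out single libraries moved some values that were not called across 0. The ranges between lines in vehicle were -0.004 to 0.785 for PMVK, -0.885 to 0.072 for MVD, -0.026 to 0.577 for NPC2 and -0.384 to 0.789 for APOE, those in dexamethasone were -0.040 to 0.113 for PMVK and -0.019 to 0.046 for SOAT1, and that of dexamethasone in H9 was -0.944 to 0.217 for APOE. By limma-voom with sample quality weights APOE stood at -0.26 between lines in vehicle and at 0.17 for dexamethasone in H9. The cause was not tested.

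Libraries with the same culture number had mean correlations of -0.047 to 0.11 in their deviations, over the pairs of groups, and libraries with different numbers -0.055 to 0.022. The means for different numbers are no separate comparison, since the deviations within a group sum to 0. The mean of 0.11 came from the H1 vehicle and H1 dexamethasone cultures (0.179, 0.1 and 0.05). There each vehicle culture correlated best with the dexamethasone culture of its own number, so a pairing within H1 was not excluded. No pair of groups had 3 correlations over 0.1, and over all groups not every library correlated best with its own number. The main fit therefore did not use the numbers as pairs. With the culture number as a replicate block in edgeR, 5 members were higher and 16 lower in H9 vehicle cultures, where 4447 and 3791 of 17819 genes were. In dexamethasone cultures 4 were higher and 14 lower, where 3989 and 3745 of all genes were (SREBF1 called at an adjusted p = 0.0386 in place of NPC2 at 0.058). For dexamethasone 0 members were called, and of all genes 9 in H9, 5 in H1 and 15 over both lines. The libraries' depth and 3 cultures per group leave changes within the stated intervals undetected.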
